A study of Mus musculus with 16 samples.

Results

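Interferon-stimulated genes are the genes that cells switch on when they meet an interferon, and the guanylate-binding proteins are a family of large GTPases within that programme. A set of 33 such genes was followed in resident peritoneal macrophages of the mouse, in wild-type cells and in cells lacking Ogr1, at 2 pH values. Members were taken as the probe sets that the platform annotation assigns to exactly 1 of the listed symbols, older names included, and a gene's value was the mean of log2 intensity over its probe sets. This gave 345 probe sets for 32 of the 33 genes, among 20848 genes in all, with between 2 and 27 probe sets a member. No probe set carried Gbp7 as its only symbol, so Gbp7 has no value.

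Ogr1 is a G protein-coupled receptor that senses extracellular protons. The comparisons ask how the acid response of macrophages lacking it relates to that of wild-type macrophages. The groups were wild type at pH 7.7 (WT pH 7.7), wild type at pH 6.7 (WT pH 6.7), Ogr1 KO at pH 7.7 (KO pH 7.7) and Ogr1 KO at pH 6.7 (KO pH 6.7), with 4 arrays each and 16 in all. Every group was of the C57BL/6 background and was cultured in RPMI medium with 10% foetal calf serum, and the pH was held for 24 h. The treatment text of the labels gives 7.6 and 6.8 for the same pH values, and the sample names are followed here. The labels give neither the age of the mice nor how many there were. Spread between arrays, on which every p-value rests, may therefore be technical. C57BL/6 mice carry a defective Mx1 gene, which is shared by all groups.

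Type I interferons bind the receptor chains Ifnar1 and Ifnar2, whose kinases Jak1 and Tyk2 activate a complex that holds Stat2 and Irf9. That complex binds the interferon-stimulated response element (ISRE) in the promoters of antiviral genes. Interferon-gamma acts through Ifngr1 and Ifngr2 and on promoters with a gamma-activated site (GAS), and in macrophages it is the strong inducer of the guanylate-binding proteins. These GTPases attack the membranes around microbes inside the cell.

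The ISRE was looked for in the promoters of the members. In the RefSeq promoter table (GRCm38.p6; 250 bases before to 50 bases after each annotated start site), the ISRE core (GAAA, any 2 bases, GAAA) was searched on both strands, with overlapping matches counted. It occurred in 14 of the 23 members that have an entry, of which 13 were measured, against 3.99% of the 27025 genes in the table (3.44% of its 32851 promoters). The GAS motif TTCNNNGAA, searched in the same way, occurred in 6 of 23 members and in 9.55% of all genes (8.30% of promoters). In Bst2 a GAS motif and an ISRE core overlapped. The ISRE core was held by Gbp2, Gbp3, Gbp5, Gbp7, Rsad2, Ifit1, Ifit3, Isg15, Stat2, Bst2, Ifih1, Ddx58, Oas1a and Oas3. Irf7, Oasl2 and Xaf1 held no match to either motif in this window. Dhx58, Gbp6, Gbp9, Mx1, Mx2, Oas2, Parp14, Rtp4, Usp18 and Zbp1 have no entry and could not be searched. The 60 bases around the cores of Gbp2, Gbp3, Gbp5, Rsad2, Ifit3 and Isg15 are printed on the strand of the gene. Capitals mark the ISRE core, which reads TTTC, any 2 bases, TTTC where it lies on the opposite strand.
Gbp2 (chr3:142620579-142620638, + strand): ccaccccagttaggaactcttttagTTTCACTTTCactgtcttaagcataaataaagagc
Gbp3 (chr3:142559977-142560036, + strand): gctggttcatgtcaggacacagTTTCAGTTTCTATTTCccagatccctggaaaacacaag
Gbp5 (chr3:142496744-142496803, + strand): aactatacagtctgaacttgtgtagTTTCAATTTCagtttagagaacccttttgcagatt
Rsad2 (chr12:26456538-26456597, - strand): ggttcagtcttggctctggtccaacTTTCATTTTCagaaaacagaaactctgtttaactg
Ifit3 (chr19:34583365-34583424, + strand): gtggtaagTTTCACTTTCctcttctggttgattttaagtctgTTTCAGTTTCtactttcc
Isg15 (chr4:156200856-156200915, - strand): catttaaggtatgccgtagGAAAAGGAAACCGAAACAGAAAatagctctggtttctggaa

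The 3 guanylate-binding proteins among these lie on chromosome 3, as does Gbp7. Gbp2 held 1 core, at positions -59 to -50 from the start site, and Gbp3 held 2 overlapping cores at positions -45 to -36 and -39 to -30. Isg15 held 3 overlapping cores. A match describes the letters of the window and does not show that a factor binds there.

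**Figure D1:**
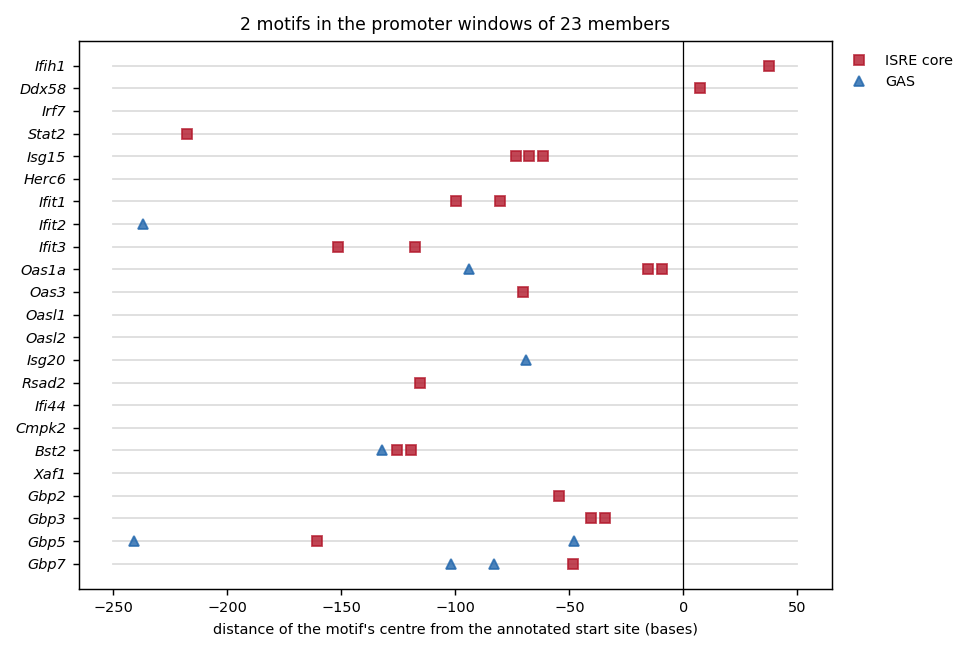
Position of each ISRE core (squares) and GAS motif (triangles) in the promoter windows of the 23 members with an entry, as the distance in bases of the motif's centre from the annotated start site, negative upstream. Cores sit in the windows of 14 members, most of them upstream of the start site, and Ifih1 and Ddx58 have theirs downstream.

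The arrays were made comparable by the authors, and their medians lay between 3.03 and 3.11 on the log2 scale. Against these medians, 8 members were below on all 16 arrays (Ifit1, Ifit2, Ifit3, Mx1, Mx2, Ifi44, Cmpk2 and Gbp5) and 9 were above on all 16 (Oas1a, Irf7, Stat2, Ifih1, Ddx58, Bst2, Zbp1, Parp14 and Gbp2). Macrophage markers were high on every array: the lysosomal gene Cd68 lay between 10.27 and 10.46, and the peritoneal macrophage factor Gata6 between 5.03 and 6.10. All numbers of arrays were small, which limits the precision, and in bulk RNA fewer cells of a type and less RNA per cell cannot be told apart.

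A single array, WT pH 6.7 replicate 1, stood apart in the members. On it 26 of the 32 members had the highest value of their group, where 25.9% of all genes did. Its level exceeded the mean of the other 3 arrays of the group by a median of 0.76 over the members and by a median of -0.02 over all genes. The lead was over 0.5 for 20 of 32 members and for 3.67% of all genes, and over 1 for 9 members and 0.638% of all genes. The only other arrays with more than 1 member leading by over 0.5 were KO pH 7.7 replicate 4 with 4, WT pH 7.7 replicate 4 and KO pH 6.7 replicate 4 with 3 each, and WT pH 7.7 replicate 2 with 2.

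**Figure D2:**
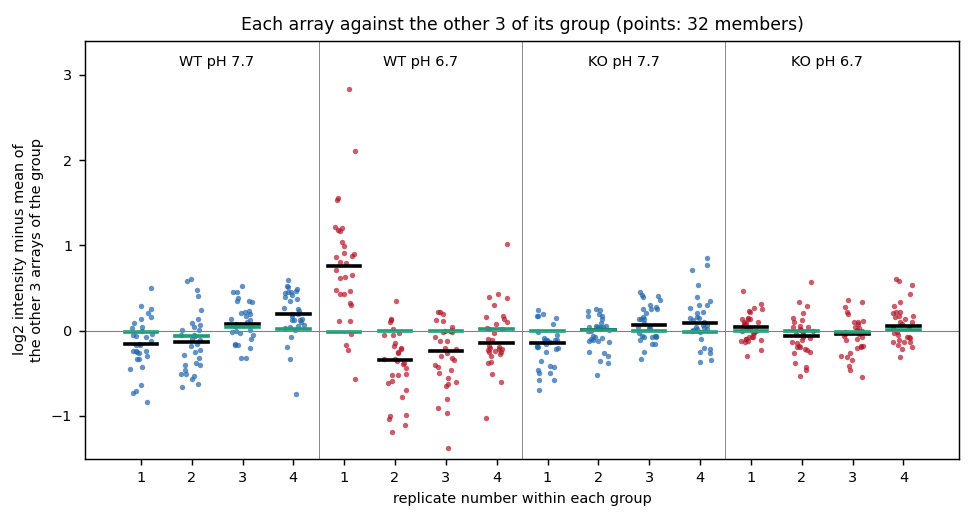
Log2 intensity of each of the 32 members (points, blue at pH 7.7 and red at pH 6.7) minus the mean of the other 3 arrays of its group, for each array. Black bars are the median of the members and green bars the median of all genes, and on WT pH 6.7 replicate 1 these are 0.76 and -0.02.

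Gbp2 led by 2.83 on that array, which was rank 6 of all 20848 genes, and all 12 of its probe sets were higher there. Rtp4, a Golgi chaperone of receptor trafficking that interferon induces, led by 2.11, at rank 13. Irf7, the factor that amplifies type I interferon production, led by 1.55, and Gbp3 by 1.53. Among the rest, Rsad2 (viperin, an antiviral enzyme) led by 1.22, Gbp5 by 1.21, Gbp6 by 1.18, Ifit3 by 1.17 and the sensor Zbp1 by 1.04. Members that did not lead were Isg20 (an RNA exonuclease) at -0.56, Oasl1 at -0.23, the ubiquitin-like modifier Isg15 at -0.17 and Mx2 at -0.04.

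Genes outside the set moved on the same array. Of 54 further interferon-stimulated genes 39 were highest of their group on it, with a median lead of 0.31. So were 13 of 18 genes of nucleic acid sensing (median lead 0.40) and 16 of 21 interferon-gamma targets of antigen presentation and related genes (0.19). Of 11 receptor and signalling genes 8 were highest (0.16), and of 12 regulatory factors and inhibitors 8 (0.20). Of 7 interferon ligands 1 was highest on this array. All 7 mast cell markers were highest there, with a median lead of 1.56: the protease Cpa3 read 6.35 on it and between 2.44 and 3.79 on the other 3 arrays. The mean level of the mast cell markers ranged over 2.18 to 2.95 at WT pH 7.7, 2.34 to 4.52 at WT pH 6.7, 3.09 to 3.50 at KO pH 7.7 and 2.24 to 2.88 at KO pH 6.7. Of 5 monocyte markers 2 were highest on WT pH 6.7 replicate 1, Ly6c2 among them at 4.88 against 1.27 to 2.04. Of 10 macrophage markers 6 were highest, with a median lead of 0.24, and of 6 plasmacytoid dendritic cell markers 2. The part of these cell types in the members' levels on this array was not tested. Each result below is given with all 16 arrays and, where it matters, without this array. That choice was made after the values were seen, and the array was singled out by the members' own values. P-values and directions of change from fits without it are therefore descriptive and are no independent support for a change in a member.

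**Figure D3:**
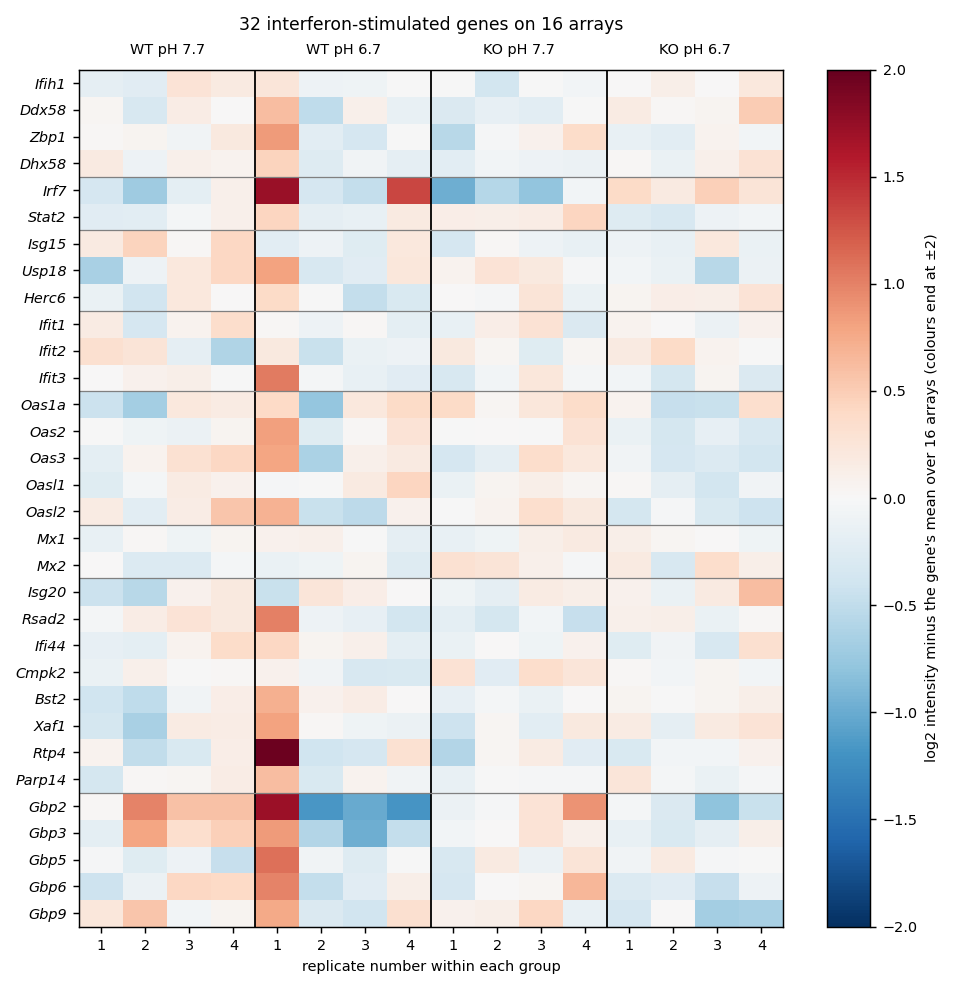
Log2 intensity of the 32 members (rows, grouped by role) on the 16 arrays (columns, by group and replicate), minus each gene's mean over all arrays, with colours ending at 2 above and below. The column of WT pH 6.7 replicate 1 is red for most rows, and Gbp2 and Gbp3 are blue on the other 3 arrays of that group.

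In wild-type macrophages, acid brought no member past the threshold with all 16 arrays, and lower Gbp2 and Gbp3 without replicate 1. With all arrays, 0 of 32 members passed an adjusted p of 0.05 in limma, where 3.21% of all genes did, and 4 members had an unadjusted p under 0.05, where 14.4% of all genes did. No member had groups without overlap, against 4.66% of all genes higher and 3.11% lower. The median change of the members was 0.04, with 12 of 32 estimates below 0, and that of all genes was 0.00. Without replicate 1 the median of the members was -0.12, with 20 of 32 below 0, and 6 had an unadjusted p under 0.05, where 12.9% of all genes did. Replicate 1 was above the mean of the other 3 acid arrays for 28 of 32 members, so leaving it out lowers their estimates by itself. With all arrays the changes ran from -0.95 for Gbp2 to 0.85 for Irf7. The 95% confidence interval stayed within a change of 1 on the log2 scale for 28 of 32 members, and it reached past 1 for Irf7, Rtp4, Gbp2 and Gbp3.

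Gbp2, which restricts intracellular bacteria and parasites, read 5.11, 6.09, 5.68 and 5.67 on the arrays of WT pH 7.7. At WT pH 6.7 it read 6.80, 3.93, 4.08 and 3.91. Replicate 1 was above every array of the series, and the other 3 acid arrays were below every other array of the series. With all arrays the change was -0.95 ± 0.46 (SE, n = 4 and 4; limma, adjusted p = 0.358). Without replicate 1 it was -1.66 ± 0.24 (n = 4 and 3; limma, adjusted p = 0.00105). All 12 probe sets of Gbp2 were lower in acid, with and without replicate 1.

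Gbp3, a GTPase of the same family, read 3.54, 4.52, 4.07 and 4.22 at WT pH 7.7. At WT pH 6.7 it read 4.58, 3.14, 2.75 and 3.26, again highest on replicate 1, and the other 3 arrays lay below all 4 arrays at pH 7.7. With replicate 1 the groups overlapped. The share of all genes with 3 arrays apart from 4 was not computed, for Gbp3 or for Gbp2. The change was -0.65 ± 0.28 with all arrays (SE; limma, adjusted p = 0.267) and -1.04 ± 0.18 without replicate 1 (limma, adjusted p = 0.00562). Without that array 2 of 32 members passed, both lower, where 1.96% of all genes passed and 0.624% were lower. On the same 7 arrays the mean level of mast cell markers at WT pH 6.7 was 2.34 to 3.06, overlapping that at pH 7.7. Dendritic cell markers had a mean level of 3.92 to 4.06 at WT pH 6.7 and 3.62 to 3.80 at WT pH 7.7, without overlap. Plasmacytoid dendritic cell markers did not overlap either, at 2.95 to 3.28 on the 3 acid arrays and 2.82 to 2.94 at pH 7.7. The part of these markers in the result was not tested.

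The other guanylate-binding proteins did not pass in wild type with or without replicate 1. Gbp5, which helps to assemble inflammasomes, read 1.50 to 1.94 at WT pH 7.7 and 1.70 to 1.96 on 3 of the acid arrays, with 3.05 on replicate 1. Gbp6 read 2.92 to 3.73 and 2.84 to 4.31, and Gbp9 2.42 to 3.02 and 2.09 to 3.23, so that in each case the groups overlapped. For Gbp6 the annotation splits the probe sets between that name, with 10, and the older name Mpa2l, with 3. The change in wild type was -0.06 over the former and 0.33 over the latter, and neither passed.

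Irf7 read 3.94, 3.56, 4.08 and 4.37 at WT pH 7.7 and 6.00, 3.94, 3.80 and 5.60 at WT pH 6.7. Replicates 1 and 4 of the acid group were above all arrays at pH 7.7, and replicates 2 and 3 were among them. The change was 0.85 ± 0.37 (SE; limma, adjusted p = 0.280), and without replicate 1 it was 0.46 ± 0.32 (adjusted p = 0.624). Bst2 (tetherin, which holds budding virus at the cell surface) read 6.28, 6.16, 6.61 and 6.80 at pH 7.7 and 7.38, 6.75, 6.82 and 6.69 at pH 6.7, a change of 0.45 ± 0.15 (limma, adjusted p = 0.123). It had the smallest p of the members in wild type, and its groups overlapped. Rtp4 read 2.84 to 3.46 at pH 7.7 and 5.30, 2.94, 2.99 and 3.63 at pH 6.7. Its change of 0.53 with all arrays was 0.00 without replicate 1.

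In Ogr1 KO macrophages no member passed either. Of 32 members, 0 passed in limma, where 4.98% of all genes did, and 3 had an unadjusted p under 0.05, where 20.8% of all genes did. The median change was -0.02 in the members and -0.02 in all genes, from -0.65 for Gbp2 to 0.92 for Irf7. The 95% confidence interval stayed within a change of 1 for 30 members, the others being Irf7 and Gbp2. Arrays of the pH groups did not overlap for 3 members that were higher in acid (Irf7, Ifih1 and Ddx58), against 8.36% of all genes, and for 4 that were lower (Oas2, Oasl2, Usp18 and Stat2), against 6.44%. In KO the mean levels of mast cell markers did not overlap either and were lower at pH 6.7, in the ranges given above. Those of mesothelial cell and fibroblast markers were also lower without overlap, at 2.26 to 2.34 at pH 7.7 and 2.05 to 2.21 at pH 6.7. The part of these markers in the members' changes was not tested.

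**Figure D4:**
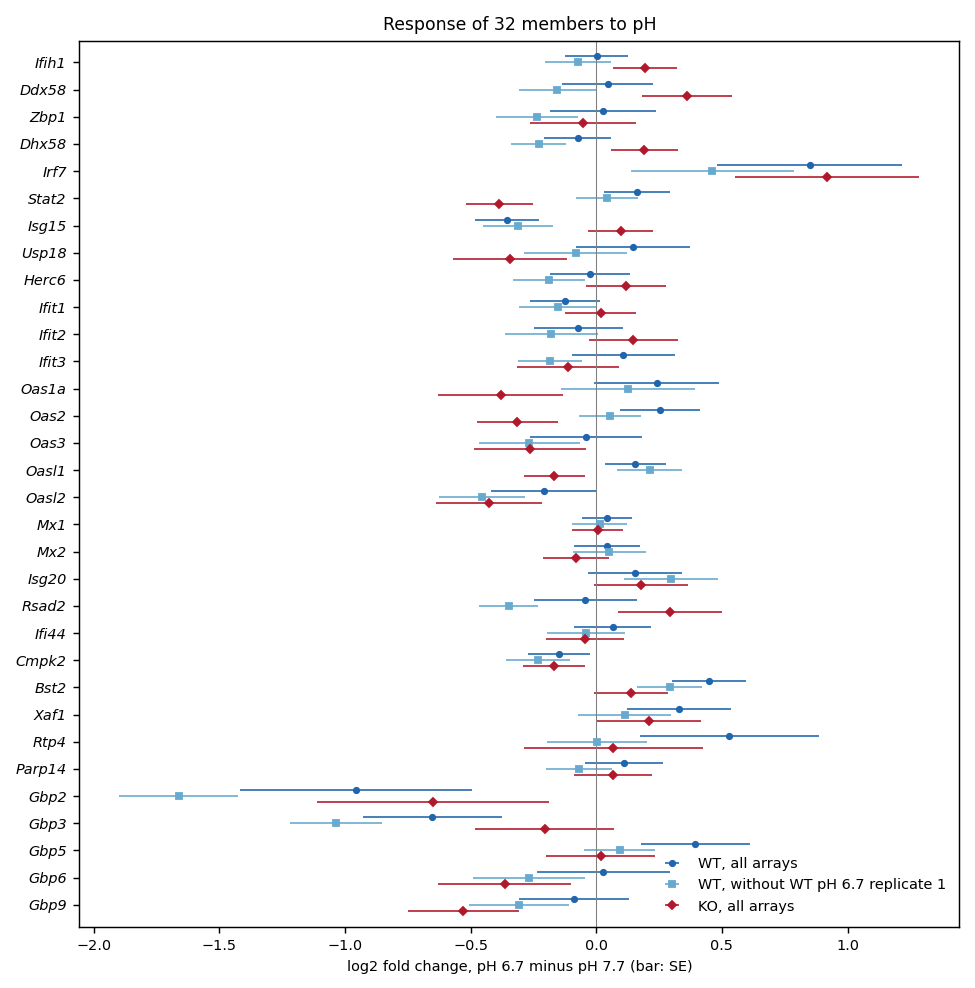
Log2 fold change from pH 7.7 to pH 6.7 (x axis, with SE) of each member in WT with all arrays (circles), in WT without WT pH 6.7 replicate 1 (squares) and in KO (diamonds). Leaving out the array moves Gbp2 from -0.95 to -1.66 and Gbp3 from -0.65 to -1.04, and the KO values of these genes are -0.65 and -0.21.

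Irf7 read 3.30, 3.70, 3.48 and 4.21 at KO pH 7.7 and 4.66, 4.44, 4.74 and 4.52 at KO pH 6.7. Every acid array was above every array at pH 7.7. The change was 0.92 ± 0.37 (SE, n = 4 and 4; limma, adjusted p = 0.158). A fit of the 8 KO arrays alone, which leaves out the wide spread of WT pH 6.7, gave the same change with an SE of 0.17 (limma, adjusted p = 0.0161), and 5.15% of all genes passed in that fit. In the 15-array fit without WT pH 6.7 replicate 1, 0 of 32 members passed in KO, where 5.29% of all genes did, and 8 had an unadjusted p under 0.05, where 21% of all genes did.

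Stat2, a subunit of the ISRE-binding complex, had the smallest p in KO. It read 3.96, 3.94, 3.98 and 4.26 at KO pH 7.7 and 3.58, 3.51, 3.73 and 3.78 at KO pH 6.7, without overlap. The change was -0.39 ± 0.13 (SE; limma, adjusted p = 0.0989). In wild type Stat2 read 3.61 to 3.93 at pH 7.7 and 3.65 to 4.26 at pH 6.7, a change of 0.16 ± 0.13.

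Gbp2 in KO read 4.98, 5.06, 5.37 and 5.98 at pH 7.7 and 5.05, 4.81, 4.29 and 4.65 at pH 6.7. The groups overlapped by 1 array, and 11 of 12 probe sets were lower in acid. The change was -0.65 ± 0.46 (SE; limma, adjusted p = 0.461). Gbp3 had means of 3.81 ± 0.14 and 3.61 ± 0.18 (SD, n = 4 each), a change of -0.21 ± 0.28, and the groups overlapped.

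The probe sets of Gbp9 differed among themselves. Its brightest probe set read 3.65, 3.52, 3.14 and 4.20 at KO pH 6.7 and between 5.20 and 6.34 on the other 12 arrays. Taken alone, this probe set changed by -1.84 ± 0.23 from pH 7.7 to 6.7 in KO (SE; limma, adjusted p = 0.0020) and by -2.12 ± 0.33 in the difference between genotypes (adjusted p = 0.0199). The mean of all 6 probe sets of Gbp9 had an estimate of -0.53 ± 0.22 in KO (adjusted p = 0.174) and did not pass. The other 5 probe sets had differences between -0.77 and 0.41 in KO.

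**Figure D5:**
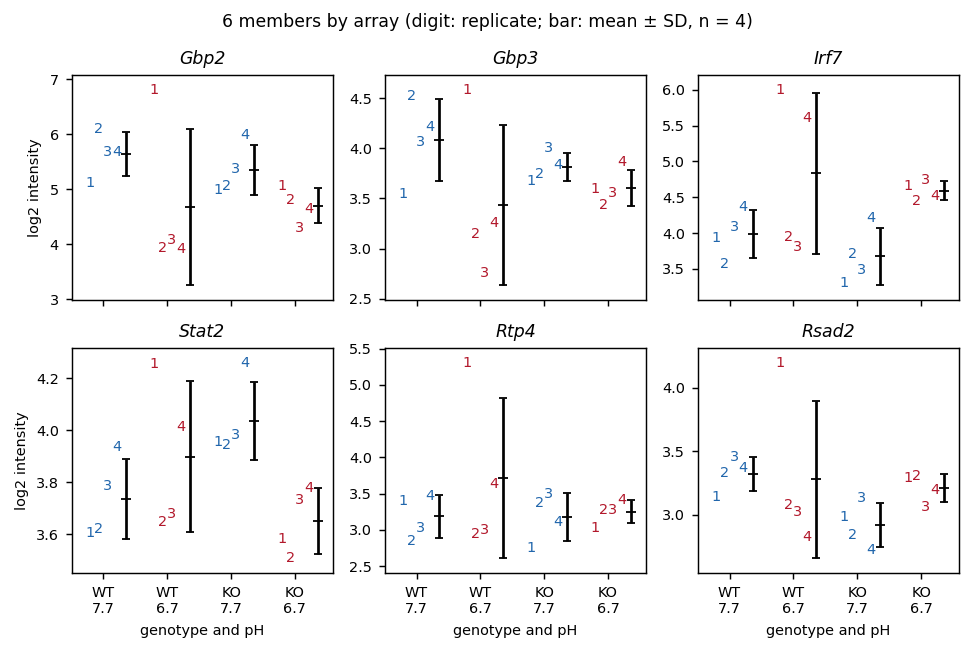
Log2 intensity of 6 members in each group, with each digit an array at its replicate number and each bar the mean ± SD of the 4 arrays. Replicate 1 of WT pH 6.7 is the highest digit of its group in every panel, while Irf7 and Stat2 show KO groups without overlap.

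Averaged over the genotypes, 1 of 32 members passed for pH, Irf7 with a change of 0.88 ± 0.26 (SE; limma, adjusted p = 0.0428). The share was 8.11% of all genes in either direction and 5.48% higher. This call was kept in 4 of the 16 fits that left out an array each and was lost without WT pH 6.7 replicate 1 (0.69 ± 0.22, adjusted p = 0.0713). Without that array 3 members passed, all lower in acid, where 7.1% of all genes passed and 2.27% of all genes were lower: Gbp2 by -1.16 ± 0.16 (adjusted p = 0.000249), Gbp3 by -0.62 ± 0.13 (adjusted p = 0.0053) and Oasl2 by -0.44 ± 0.12 (adjusted p = 0.0286). Oasl2 is an antiviral relative of the oligoadenylate synthetases. It read 3.66, 3.28, 3.65 and 4.06 at WT pH 7.7, 4.20, 3.06, 2.98 and 3.58 at WT pH 6.7, 3.50 to 3.84 at KO pH 7.7 and 3.08 to 3.48 at KO pH 6.7.

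The loss of Ogr1 left no member past the threshold. The change with pH differed between KO and WT for 0 of 32 members in limma (0.0432% of all genes), with 3 at an unadjusted p under 0.05 (11.3% of all genes). These were Stat2 at -0.55 ± 0.19 (SE; limma, adjusted p = 0.283), Oas2 at -0.57 ± 0.23 (adjusted p = 0.344) and Isg15 at 0.45 ± 0.18 (adjusted p = 0.347). For Gbp2 the difference in response was 0.30 with all arrays and 1.01 ± 0.32 without WT pH 6.7 replicate 1 (limma, adjusted p = 0.256), so a difference between the genotypes was not shown in either fit. Without that array 0 of 32 members passed in limma for the difference in response or between genotypes at pH 6.7 (0.0144% of all genes in each), with 9 and 7 at an unadjusted p under 0.05, where 11.4% and 9.76% of all genes were.

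KO and WT arrays were also compared at each pH. At pH 7.7, 0 of 32 members and 0% of all genes passed in limma, and 3 members had an unadjusted p under 0.05, where 7.55% of all genes did. Isg15 read 3.29, 3.57, 3.14 and 3.53 in WT and 2.78, 3.14, 3.01 and 2.96 in KO, a difference of -0.41 ± 0.13 (SE; limma, adjusted p = 0.526), and the groups met at 3.14. Stat2 was higher in KO without overlap, where 2.33% of all genes were. Rsad2 was lower without overlap, where 1.04% were, with 3.14 to 3.45 in WT and 2.73 to 3.13 in KO. Mean levels of mast cell markers at pH 7.7 did not overlap either, at 2.18 to 2.95 in WT and 3.09 to 3.50 in KO. The part of these markers in the differences of the members was not tested. At pH 6.7, 0 of 32 members passed (0.024% of all genes), 3 had an unadjusted p under 0.05 (10.5% of all genes), and no member had groups without overlap (4.24% of all genes higher and 2.75% lower). Averaged over pH, 0 of 32 members and 0% of all genes passed, with 1 member at an unadjusted p under 0.05, Mx2 (6.31% of all genes).

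By role, no cytosolic sensor of viral RNA or DNA passed. Ifih1 (MDA5), Ddx58 (RIG-I), Dhx58 (LGP2) and Zbp1 had estimates between -0.07 and 0.05 in WT and between -0.05 and 0.36 in KO. Without WT pH 6.7 replicate 1 all 4 estimates in WT were below 0, from -0.23 to -0.07. The 4 sensors led on that array by 0.30 to 1.04, so leaving it out lowers these estimates by itself. Ddx58 read 3.78 to 4.06 at KO pH 7.7 and 4.09 to 4.58 at KO pH 6.7, without overlap, a change of 0.36 ± 0.18 (SE; limma, adjusted p = 0.265). Ifih1 read 4.26 to 4.63 and 4.63 to 4.84 in the same groups.

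The Isg15 system attaches Isg15 to proteins and removes it. Isg15 itself had an estimate of -0.35 ± 0.13 in WT (SE; limma, adjusted p = 0.172) and of 0.10 in KO. Usp18, the protease that removes Isg15 and also restrains the interferon receptor, had estimates of 0.15 in WT and -0.34 in KO, where it read 3.48 to 3.78 at pH 7.7 and 2.95 to 3.46 at pH 6.7. Herc6, the mouse ligase for Isg15, had estimates of -0.03 and 0.12. Without WT pH 6.7 replicate 1 the WT estimates were -0.08 for Usp18 and -0.19 for Herc6, and neither passed.

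The Ifit proteins bind foreign RNA ends, and Ifit1, Ifit2 and Ifit3 stayed below the array median throughout. Their changes lay between -0.12 and 0.11 in WT and between -0.11 and 0.15 in KO. Without WT pH 6.7 replicate 1 the WT estimates were -0.15 to -0.18, with Ifit3 turning from 0.11 to -0.18, and none passed. On WT pH 6.7 replicate 1 Ifit3 read 2.69, against 1.44 to 1.63 on the other 3 arrays, while Ifit1 read 1.96 against 1.74 to 1.96.

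Within the oligoadenylate synthetase family, the active enzymes make the messenger that activates RNase L. All 5 members, Oas1a, Oas2, Oas3, Oasl1 and Oasl2, had estimates below 0 in KO, with a median of -0.31, and 2 of 5 did in WT, with a median of 0.16. Without WT pH 6.7 replicate 1 the WT median was 0.06. None of these estimates passed, and none of the 5 differences in response between genotypes passed. Oas2 read 2.86, 2.88, 2.86 and 3.16 at KO pH 7.7 and 2.73, 2.52, 2.71 and 2.55 at KO pH 6.7, without overlap, a change of -0.31 ± 0.16 (SE; limma, adjusted p = 0.274). At WT pH 6.7 it read 3.69, 2.63, 2.89 and 3.14. Oas1a has 4 probe sets of its own, and 8 more that it shares with Oas1g were left out. With them its change in WT was -0.08 rather than 0.24, and neither passed.

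The Mx GTPases, which block viral nucleocapsids, were dim on all 16 arrays. Mx1 read 1.60 to 1.97 and Mx2 1.67 to 2.34 over the series. Their changes lay between -0.08 and 0.04. Among the other induced genes, Rsad2 had an estimate of -0.04 in WT with all arrays and of -0.35 ± 0.12 without replicate 1 (SE; limma, adjusted p = 0.160), and of 0.29 ± 0.21 in KO. Xaf1, a proapoptotic protein, had estimates of 0.33 in WT and 0.21 in KO, and Parp14, an ADP-ribosyltransferase, of 0.11 and 0.07. Without replicate 1 of WT pH 6.7 the WT estimates were 0.11 for Xaf1 and -0.07 for Parp14. Isg20, Ifi44 and Cmpk2 had estimates between -0.17 and 0.18 in the 2 genotypes, and in WT without that array between -0.23 and 0.30.

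The rest of the pathway was read from lists that share no gene with the members. No interferon gene passed: of 7 ligands 0 were called in WT, KO or on average, where 3.21%, 4.98% and 8.11% of all genes were. Ifnb1, named for its role after its values were seen, read 1.06 to 1.68 over all 16 arrays. Of 11 receptor and signalling genes, the type I receptor chain Ifnar2 was higher in acid in WT (0.48 ± 0.10, SE; limma, adjusted p = 0.0163) and in KO (0.37 ± 0.10, adjusted p = 0.0489). The WT call for Ifnar2 was lost without WT pH 6.7 replicate 1 (adjusted p = 0.0585), and the KO call was kept in 3 of 16 fits that left out an array. Both Ifnar2 calls were lost with the brightest probe set. The WT call was also lost with the WT arrays alone, and the KO call with the median of probe sets and with the replicate block. The interferon-gamma receptor chain Ifngr2 was lower in KO (-0.48 ± 0.10, adjusted p = 0.0107). This Ifngr2 call was kept in all 16 fits that left out an array and was lost with the median or the brightest probe set. On average over the genotypes 3 of the 11 passed, where 8.11% of all genes did: Ifnar2 and the kinase Tyk2 higher and Ifngr2 lower. The Tyk2 call was kept in 5 of 16 fits that left out an array, and the averaged Ifngr2 call was lost with the median or the brightest probe set. Of 12 regulatory factors and inhibitors 1 passed on average, the phosphatase Ptpn6, which was lower, and none passed within a genotype. The Ptpn6 call was lost with the median or the brightest probe set.

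Of 18 genes of nucleic acid sensing, Tmem173 (STING, the adaptor for cytosolic DNA) was lower in WT (-0.66 ± 0.17, SE; limma, adjusted p = 0.0439) and in KO (-0.77 ± 0.17, adjusted p = 0.0171). The WT call for Tmem173 was kept in 6 of the 16 fits that left out an array each. It was lost with the median or the brightest probe set and with the WT arrays alone. The KO call for Tmem173 was kept in 13 of these 16 fits and was lost with the brightest probe set. Tmem173 read 4.49 to 4.96 at WT pH 7.7 and 4.51, 3.72, 4.04 and 4.02 at WT pH 6.7, and it was again highest on replicate 1 of that group. The kinase Tbk1 was lower in WT (-0.37 ± 0.09, adjusted p = 0.0266) and the ligase Trim25, which acts with RIG-I, was higher in WT (0.72 ± 0.14, adjusted p = 0.00633). Of the 16 fits that left out an array, 12 kept the Tbk1 call and 16 the Trim25 call, and the Tbk1 call was lost with the median or the brightest probe set. The remaining members of that list did not pass in either genotype. In WT 1 of the 18 was higher and 2 were lower, where 2.18% of all genes were higher and 1.03% lower. In KO 0 were higher and 1 was lower, where 3.21% of all genes were higher and 1.77% lower.

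Of 54 further interferon-stimulated genes 4 were higher and 2 lower in WT, where 2.18% of all genes were higher and 1.03% lower. Of the 4, Samhd1 (adjusted p = 0.0495) was kept in 2 of the 16 fits that left out an array. In KO 3 were higher and 0 lower, where 3.21% were higher and 1.77% lower. Il18bp, the secreted antagonist of interleukin-18, read 3.90 to 4.53 at WT pH 7.7 and 5.19 to 5.68 at WT pH 6.7, a rise of 1.21 ± 0.13 (SE; limma, adjusted p = 8.54e-05). In KO Il18bp rose by 0.84 ± 0.13 (adjusted p = 0.00177), and both calls were kept in all 16 fits that left out an array. Slfn4 rose by 1.08 ± 0.17 in WT (adjusted p = 0.00167) and 0.77 ± 0.17 in KO (adjusted p = 0.0169). Both Slfn4 calls were lost with the brightest probe set, and the KO call was kept in 13 of the 16 fits that left out an array. Pml, which forms nuclear bodies, rose by 0.49 and 0.47. Its call was kept in 12 of these 16 fits in WT and in 11 in KO, and both calls were lost with the median of probe sets. Without WT pH 6.7 replicate 1 the WT call for Pml was lost (adjusted p = 0.0655). Tor3a fell by 0.68 in WT, and this call was lost with the brightest probe set. Phf11d, the other lower gene in WT, had an estimate of -0.61 (limma, adjusted p = 0.0161). The Phf11d call was kept in 15 of the 16 fits that left out an array. It was lost with the median or the brightest probe set and with the WT arrays alone. The median change of this list was 0.02 in WT and 0.04 in KO, near that of all genes.

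Of 11 interferon-gamma-induced GTPases outside the set 0 passed in WT or KO, where 3.21% and 4.98% of all genes did, and 9 were highest of their group on WT pH 6.7 replicate 1, with a median lead of 1.05. Irgm2 of this list, named after its values were seen, read 6.09 on that array and 4.08 to 4.54 on the other 3. Of 21 interferon-gamma targets of antigen presentation and related genes, the peptide transporter Tap1 rose in WT (0.67 ± 0.14, SE; limma, adjusted p = 0.0105) and none passed in KO. The Tap1 call was kept in all 16 fits that left out an array and was lost with the median or the brightest probe set and with the WT arrays alone. On average over the genotypes 3 of the 21 passed, where 8.11% of all genes did: Tap1, Cd274 (PD-L1) and the receptor Fcgr1, all higher. These 3 calls were lost with the median or the brightest probe set. The Fcgr1 call was kept in 8 of the 16 fits that left out an array.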

How the data were processed

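Affymetrix arrays measured RNA of 16 samples. The authors deposited linear intensity values for probe sets. The submitters' processing notes name RMA and R 2.15.2. Values were converted to log2 after deposit, since the deposited values are linear, and averaged over the probe sets that carry 1 gene symbol (213361 of 241576; 5107 carry several and 23108 none listed). Symbols were updated through the RefSeq gene table, which gave 20848 genes. The tests used limma 3.58.1 under R 4.3.3, with 4 group means over all 16 arrays and moderated variances. P-values, 2-sided, were Benjamini-Hochberg adjusted over all genes within each of 7 comparisons, at a threshold of 0.05 and with no filter on low values. Errors are SEs. The steps were tested on simulated data.

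All members could be named, and of each pathway list the up to 4 genes with the smallest p past the threshold in a comparison. Ifnb1, Irgm2 and Samhd1 were named outside this rule. The members, lists and tests were chosen with earlier results of these data known. The alternatives were other gene summaries, filters, scalings, variances and weights, a replicate block, fits of the compared groups alone and leaving out arrays. Replicate numbers were not used to pair the samples in the main fits. No date or batch was given. The transcript of the targeted gene is not reported here, so it gave no check of the KO labels.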

Additional observations from a re-analysis of the deposited data

Results flagged for a closer look

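In 128 sets of 4 arrays (32 members in 4 groups), 10 held an array far from the other 3, its gap to the nearest of them exceeding Dixon's 95% critical share of the range. Chance flags about 1 in 20 such sets, and 5.43% of the sets of all genes were flagged. Of the 10, 3 lay on WT pH 6.7 replicate 1: Gbp2 at 6.80 against 3.91 to 4.08, Xaf1 at 4.44 against 3.52 to 3.66, and Ifit3 at 2.69 against 1.44 to 1.63. KO pH 7.7 replicate 4 read 3.16 for Oas2 against 2.86 to 2.88 and 4.26 for Stat2 against 3.94 to 3.98. KO pH 6.7 replicate 3 read 3.33 for Isg15 against 2.97 to 3.02 and 2.95 for Usp18 against 3.37 to 3.46. Ifih1 read 4.26 on KO pH 7.7 replicate 2 against 4.57 to 4.63, and Parp14 read 4.65 on KO pH 7.7 replicate 1 against 4.78 to 4.80. Oas1a read 3.58 on WT pH 6.7 replicate 2 against 4.57 to 4.75.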

How the results depend on the processing

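The number of arrays and the dimness of 8 members limit what could be detected, and no detection call was given. Counts of members called are out of 32 unless a filter is named. Among the alternatives, Bst2 passed in WT under a filter at the 75th percentile (1 call; 4224 genes and 2 members tested). The share of these 4224 genes that passed is not given here, so the Bst2 call cannot be set against it. With the brightest probe set in place of the mean, Gbp9 passed in KO, in the interaction, between genotypes at pH 6.7 and averaged over pH (1 member each), and averaged over genotypes it passed where Irf7 was lost. Irf7 passed with the 8 KO arrays alone (1 member; 1074 of all genes). Irf7, averaged over genotypes, was lost (0 members) with the median of probe sets, another quantile normalization, an intensity trend with robust variances, and array weights. Leaving out 1 array each gave 0 to 2 members in WT, 0 to 3 averaged over genotypes and 0 in the other 5 comparisons.

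Settings added after the data were seen left out WT pH 6.7 replicate 1 in 5 forms. These were without WT pH 7.7 replicate 2 as well, with weights, with the brightest probe set, with centred arrays and with the replicate block. Each called Gbp2 and Gbp3 in WT (2 members each, with 0.35% to 2.09% of all genes called). All 5 settings leave out the same array, which was singled out by the members' values, so they are no independent support for these calls. In KO they gave 1 with weights (Stat2; 7.24% of all genes), 1 with the brightest probe set (Gbp9; 2.49%) and 2 with the block (Irf7 and Stat2; 4.24%). With the brightest probe set they gave 1 in the interaction (0.326%) and 1 at pH 6.7 (0.173%). Averaged over genotypes they gave 3, 3, 4, 3 and 4 in the order above, with 1.9% to 7.74% of all genes.

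Over all genes, the brightest probe set gave 175 calls in WT, 570 in KO, 83 in the interaction, 67 between genotypes at pH 6.7, 529 averaged over genotypes and 2 averaged over pH. The median of probe sets gave 315, 415, 2, 3 and 930 in the first 5 of these. The compared groups alone gave 239 in WT and 1 at pH 6.7. At pH 6.7 the filter at the array median gave 3, that at the 75th percentile 0 and the intensity trend 2. Averaged over pH, the filter at the median, centring, quantile normalization and weights gave 1 each. Leaving out an array gave 379 to 624 calls in WT, 451 to 1282 in KO, 1 to 17 in the interaction, 0 to 3 at pH 7.7, 0 to 7 at pH 6.7, 1320 to 1655 averaged over genotypes and 0 to 2 averaged over pH. The lowest count in KO came without KO pH 6.7 replicate 4.

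Same-numbered arrays shared little deviation: 24 pairs correlated at -0.21 to 0.17, 2 of them over 0.1, and 7 of 16 arrays correlated best with their own number. These values do not settle whether the samples were paired. With the replicate block 600 genes passed in WT, 884 in KO, 1 in the interaction, 1 at pH 7.7, 2 at pH 6.7, 1562 averaged over genotypes and 3 averaged over pH. Members called were the same in number. Tyk2 averaged over genotypes turned to -0.0026 with the brightest probe set, and the cause was not tested.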
